A study of Mus musculus with 9 samples.

Results

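The FOXO factors and a set of genes described as responding to the loss of growth factor signals were followed in cultured neural stem cells (NSCs) of the adult mouse brain during the first hours of differentiation. The set has 10 genes, namely the FOXO transcription factors Foxo1, Foxo3, Foxo4 and Foxo6, the receptor adaptors Irs1 and Irs2, the sestrins Sesn1 and Sesn3, the kinase inhibitor Pik3ip1 and the cyclin Ccng2. They are given by symbol, by a rule that uses no measured value but was set with earlier results of these data known. Each matched 1 row of the 48526 genes counted, and all 10 were among the 18858 genes with enough counts to be tested. The NSCs came from the subependymal zone (SEZ) of adult mice (C57BL/6 in the labels, C57BL/6J in the study's methods) and were grown as neurospheres with EGF and FGF, and differentiation was induced by plating them on an adhesive substrate in medium that kept FGF but lacked EGF. Libraries were made from undifferentiated cells (0 h) and from cells collected 1 h and 6 h after induction, 3 replicates each, which makes 9 libraries. The titles of the libraries carry the letters B, C and D, which stand for replicates 1, 2 and 3, and the labels do not say what the 3 libraries with the same letter share. The methods also describe plating in complete medium ahead of treatment for cells fixed early, and the labels do not say whether this step applied to these libraries, so that a change of substrate may or may not fall within the 0 h to 6 h interval. No group with a change of medium alone is among the 9 libraries, and by the study's methods the basal medium contained insulin at every time point.

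FOXO proteins are forkhead transcription factors that sit at the end of the insulin and growth factor pathway. Receptors recruit phosphatidylinositol 3-kinase (PI3K) through adaptors such as IRS1 and IRS2, PI3K activates the kinase AKT, and AKT phosphorylates FOXO proteins, which then leave the nucleus. When growth factors are withdrawn FOXO proteins return to the nucleus, where they activate genes that slow the cell cycle, restrain growth and raise receptor sensitivity, and in the adult brain they are known for keeping NSCs from being depleted. This control acts on the proteins, so the level of a Foxo mRNA does not report the activity of its protein, and the RNA measured here shows only mRNA levels.

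The total count per library was between 65871454 and 105592597 (median 73170866). Expression is given as CPM, the counts of a gene brought to a common library total, with TMM scaling factors of 0.97 to 1.02. The list of 10 NSC markers, which includes Nes, Sox2, Vim, Fabp7 and Slc1a3, summed to between 6754 and 9621 CPM in each library. Against this stood sums of 3.49 to 11.5 CPM for 3 neuronal markers, 4.41 to 7.46 CPM for 3 oligodendrocyte markers, 1.44 to 4.22 CPM for 3 endothelial markers (Cldn5 was at 0 in all libraries of 0 h and 1 h) and 0.0407 to 0.263 CPM for 3 microglial markers. The ependymal marker Foxj1 lay between 36.4 and 90.8 CPM. Some of these markers moved with time, and not in 1 direction within a list. The neuronal sum was 3.87 to 6.34 CPM at 0 h and 5.42 to 11.5 CPM at 6 h, with Tubb3 higher (means of 3.76 and 7.83 CPM) and Dcx (1.08 and 0.811 CPM) and Stmn2 (0.331 and 0.194 CPM) not called. In a fit without the replicate letter Tubb3 was not called either (edgeR adjusted p = 0.243). The oligodendrocyte sum was 5.30 to 5.83 CPM at 0 h and 7.36 to 7.46 CPM at 6 h. Foxj1 fell from a mean of 61.3 CPM at 0 h to 46.7 CPM at 6 h (log2 fold change -0.36). The endothelial marker Kdr fell from 2.68 to 1.63 CPM (-0.72), while Pecam1 was not called. Without the replicate letter in the fit neither fall was called (edgeR adjusted p = 0.598 for Foxj1 and 0.502 for Kdr). Of the mural markers, Acta2 fell from a mean of 77.2 to 36.6 CPM (log2 fold change -1.06) while Pdgfrb rose from 0.165 to 2.12 CPM (3.68), so their sum, 48.2 to 94.3 CPM at 0 h and 30.1 to 45.3 CPM at 6 h, follows Acta2. Pdgfrb was low and very uneven between replicates (SD 0.192 CPM at 0 h and 2.47 CPM at 6 h). In a fit without the replicate letter neither mural marker was called (edgeR adjusted p = 0.133 for Acta2 and 0.175 for Pdgfrb). Their part in the results was not tested. In bulk RNA a change in the number of cells of a type and a change in the RNA per cell cannot be told apart. Nothing says that the replicates came from separate animals, so no p-value can be read as a spread between animals. With the replicate letter in the fit, p-values measure how the time changes vary between replicates, after differences in level between letters are removed. Without the letter they measure the spread between these cultures, differences in level included.

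Of the 10 genes, 7 were higher at 6 h than at 0 h and none was lower. The count of 7 rested on single libraries, since it was 3 without replicate 2 of 0 h and 4 without replicate 1 of 0 h or without replicate 3 of 6 h. The genes that rose were Foxo1, Foxo4, Foxo6, Sesn1, Sesn3, Pik3ip1 and Ccng2, with Sesn1 at 1.70-fold and Foxo4 at 1.47-fold, and the other 5 at 1.15-fold to 1.44-fold. Irs1 and Irs2 followed another course, since they rose by 1 h and fell again between 1 h and 6 h, and Foxo3 was called in no comparison. These calls come from the quasi-likelihood test of edgeR over all tested genes in 1 fit of the 9 libraries with the replicate letter as a block, at a Benjamini-Hochberg adjusted p under 0.05. In that fit 17.4% of all tested genes were called higher and 17.5% lower at 6 h against 0 h, and the 7 of 10 members called higher are read against the former share. The count of members called lower was also 0 at an unadjusted p under 0.05 and by DESeq2 with the block. The median log2 fold change of the 10 genes was 0.26, the 10 values were all positive, and the median of all tested genes was 0.00.

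For 1 h against 0 h the block fit called 2 of the 10 genes higher, Irs1 and Irs2, beside 1.36% of all tested genes. None was called lower, beside 2.14% of all tested genes, and at an unadjusted p under 0.05 the count was 2 by edgeR and 1 by DESeq2. Between 1 h and 6 h it called 5 higher (Foxo1, Foxo4, Sesn1, Pik3ip1 and Ccng2) and 2 lower (Irs1 and Irs2), beside 18.0% and 17.5% of all tested genes. The 3 comparisons share libraries, and none of them is independent of the others.

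The replicate block weighed heavily on these calls. Libraries with the same letter deviated together from their time point, and in the fit without the block only Foxo4 and Sesn1 were called at 6 h, both against 0 h and against 1 h. In that fit 1.46% of all genes were higher and 0.955% lower at 6 h against 0 h, and 1.48% were higher and 0.663% lower at 6 h against 1 h. At 1 h against 0 h it called 0.0424% of all genes higher and 0% lower, and no member in either direction (1 higher and 0 lower at an unadjusted p under 0.05, and 0 by DESeq2 without the block, also with 1 higher and 0 lower unadjusted). The letter accounted for 78.3% of the variance of log2 CPM of Foxo1 over the 9 libraries, 76.3% of that of Sesn3, 71.0% for Pik3ip1 and 69.3% for Irs1. For Sesn1 and Foxo4 it accounted for 3.77% and 2.68%, and time for 94.8% and 92.6%. Over all tested genes the median shares were 48.9% for the letter and 26.9% for time.

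**Figure D1:**
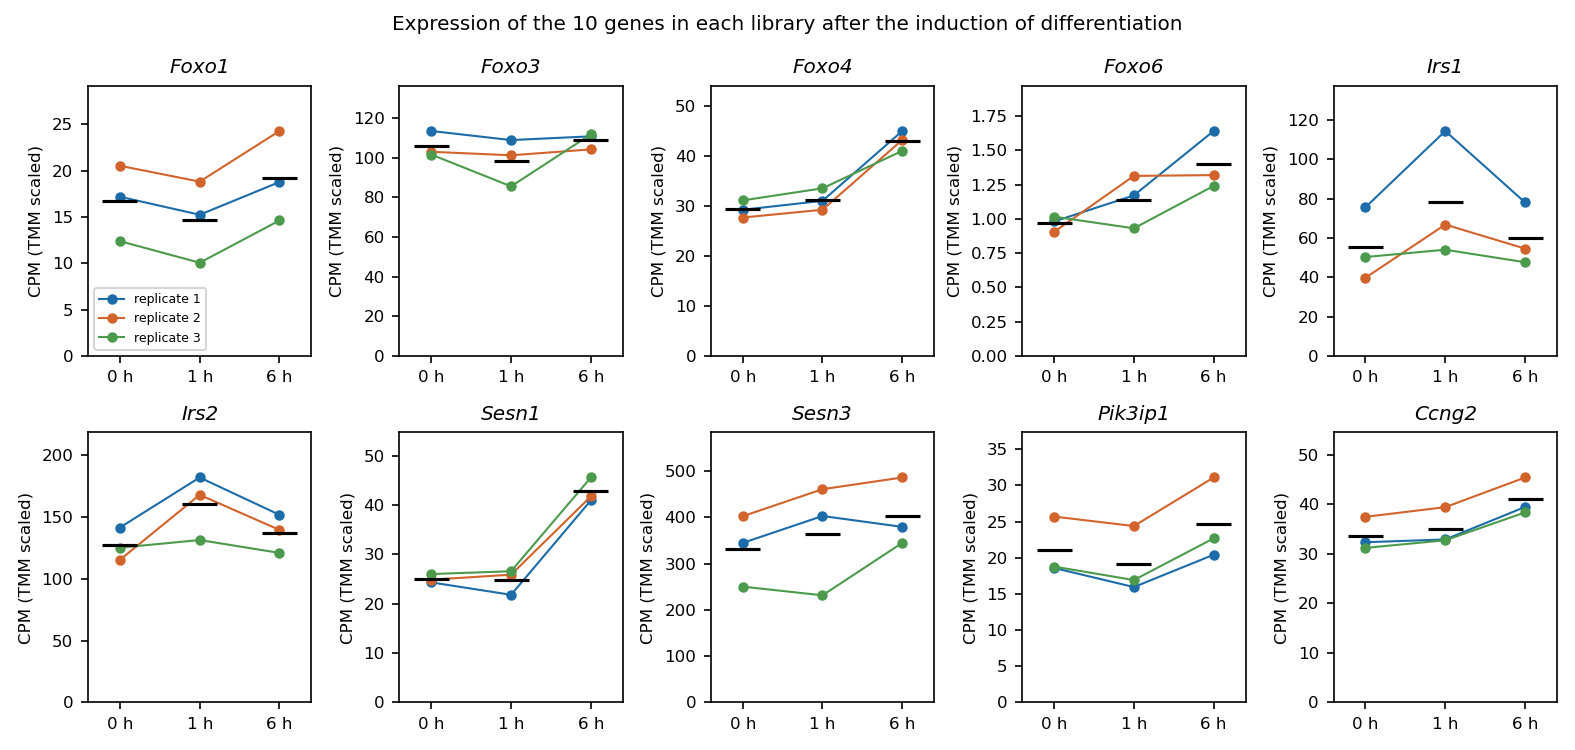
CPM (TMM scaled, linear axes from 0) of each of the 10 genes in the 9 libraries, by time point. Coloured points joined by lines are the libraries of replicates 1, 2 and 3, and black bars are the means of the 3 libraries. All 6 h points of Foxo4, Foxo6, Sesn1 and Ccng2 lie above all 0 h points of the same gene, and Irs1 and Irs2 peak at 1 h in each replicate. For Foxo1 and Pik3ip1 each line dips at 1 h and ends highest at 6 h. The 3 lines of Foxo1 stay apart, while for Pik3ip1 replicate 2 lies above replicates 1 and 3, which are close to each other.

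The genes were compared with each other on a scale per length, as CPM per kb of merged exons. At 0 h Sesn3 (21.8 CPM per kb, 16.4 to 26.4 in the 3 libraries) and Irs2 (20.1, 18.2 to 22.4) were highest, and their ranges overlapped. Foxo3 followed at 14.0 CPM per kb (lowest library 13.4) and Foxo4 at 8.41 (7.94 to 8.92), each apart from its neighbours in the order, although 1 library of Irs1 (8.26) reached the range of Foxo4. Sesn1 at 6.30, Ccng2 at 6.17, Irs1 at 6.04 and Pik3ip1 at 4.92 CPM per kb came next, and their order is not resolved, because each range overlapped that of the next gene. Foxo1 at 1.93 CPM per kb (1.43 to 2.37) and Foxo6 at 0.370 (0.346 to 0.389) were lowest and apart from the rest. Among the FOXO factors the order was therefore Foxo3, Foxo4, Foxo1 and Foxo6. At 6 h it was the same, with 14.4, 12.3, 2.22 and 0.536 CPM per kb, and it did not change when the longest transcript was used as the length, which put Foxo3 at 15.5 and Foxo4 at 9.27 CPM per kb at 0 h. That length moved other genes further, since the mean at 0 h became 36.4 CPM per kb for Sesn3 and 8.17 for Pik3ip1, which was then above Ccng2 (7.42), Sesn1 (6.58) and Irs1 (6.04).

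**Figure D2:**
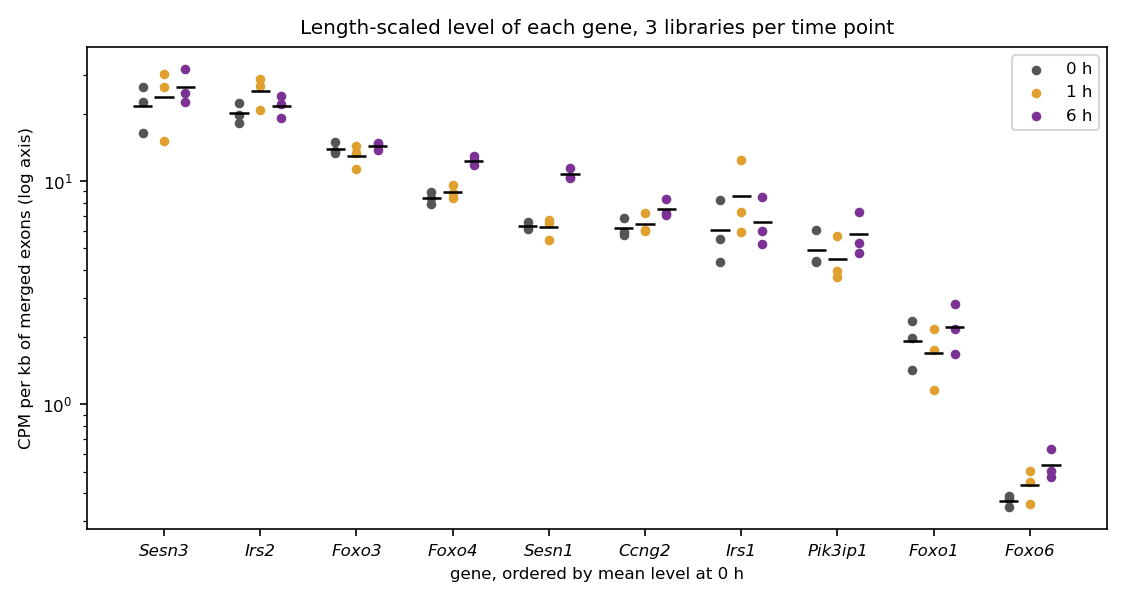
Level of each gene as CPM per kb of merged exons (log axis), with genes ordered by their mean at 0 h. Points are the 3 libraries of each time point, grey for 0 h, orange for 1 h and purple for 6 h, and black bars are means. Sesn3 and Irs2 are at the top, Foxo6 is at the bottom, and Foxo4 and Sesn1 are the genes whose 6 h points stand clear of both earlier time points.

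Foxo4 (ENSMUSG00000042903; GRCm38 chromosome X, 101254528 to 101260873, plus strand) is the FOXO factor whose mRNA was called higher at 6 h both with and without the block. Its CPM in replicates 1, 2 and 3 was 29.2, 27.7 and 31.1 at 0 h, 31.0, 29.2 and 33.5 at 1 h, and 45.0, 43.2 and 41.0 at 6 h. The 3 libraries of 6 h were above all 6 earlier libraries, and the replicates were close to each other at every time point. Its mean of 29.3 ± 1.71 CPM (SD, n = 3) before induction became 43.0 ± 1.99 CPM after 6 h, a log2 fold change of 0.56 (SE 0.063, edgeR adjusted p = 2.64e-05 with the block and 0.0198 without it). Most of this came after 1 h, with a log2 fold change of 0.46 between 1 h and 6 h (adjusted p = 0.000109 with the block and 0.0343 without it) and of 0.09 between 0 h and 1 h (adjusted p = 0.481). Of all tested genes 8.28% rose further than Foxo4 at 6 h against 0 h. The call at 6 h held in each of 18 alternative analyses, with an adjusted p of at most 0.0198.

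Foxo1 (ENSMUSG00000044167; chromosome 3, 52268336 to 52353221, plus strand) is the factor best known for its part in insulin action in liver and other tissues. It had 17.2, 20.5 and 12.4 CPM at 0 h in replicates 1, 2 and 3, 15.2, 18.8 and 10.1 CPM at 1 h, and 18.8, 24.3 and 14.6 CPM at 6 h. Replicate 2 was highest and replicate 3 lowest at each time, the groups overlapped, and within each replicate the 1 h library was the lowest and the 6 h library the highest. The dip at 1 h was not called (log2 fold change -0.20, SE 0.067, adjusted p = 0.143, lower in 3 of 3 replicates). Foxo1 rose between 1 h and 6 h by a log2 fold change of 0.40 (SE 0.066, edgeR adjusted p = 0.000516 with the block and 0.547 without it). Against 0 h the rise at 6 h was 0.20 (SE 0.066, adjusted p = 0.0286 with the block and 0.799 without it). That call was lost without any of the 3 libraries of 0 h or without replicate 2 or 3 of 6 h, with log2 fold changes of 0.16 to 0.22 and adjusted p-values of 0.0728 to 0.151. The annotation places Gm20402 on the opposite strand over 7.78% of the exon bases of Foxo1, and Gm20402 had 0 counts in the 9 libraries.

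Foxo3 (ENSMUSG00000048756; chromosome 10, 42181841 to 42276755, minus strand) is the FOXO factor most closely tied to NSC quiescence. Its level was 113, 103 and 102 CPM at 0 h, 109, 101 and 85.5 CPM at 1 h and 111, 104 and 112 CPM at 6 h. The groups overlapped, and the lowest value at 1 h belonged to replicate 3. Within each replicate the 1 h library was the lowest, by log2 ratios to 0 h of -0.06, -0.02 and -0.25 in replicates 1, 2 and 3. The log2 fold change was 0.04 at 6 h against 0 h (SE 0.064, edgeR adjusted p = 0.654) and -0.11 at 1 h against 0 h (SE 0.064, adjusted p = 0.400). Between 1 h and 6 h it was 0.15 (SE 0.064, adjusted p = 0.0880), and it was called there when libraries were scaled by their totals (0.19, adjusted p = 0.0403) or no filter was used (0.16, adjusted p = 0.0265). Without replicate 3 of 6 h the sign at 6 h against 0 h turned, at -0.04.

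Foxo6 (ENSMUSG00000052135; chromosome 4, 120267079 to 120287349, minus strand), a FOXO factor known mainly from neurons, had the fewest reads of the 10 genes, with 67 to 133 per library. It had 0.981, 0.905 and 1.02 CPM at 0 h, 1.17, 1.31 and 0.931 CPM at 1 h and 1.64, 1.32 and 1.24 CPM at 6 h. The 6 h libraries were all above those of 0 h, by between 0.29 and 0.74 on the log2 scale within a replicate, and those of 1 h overlapped both. The log2 fold change at 6 h against 0 h was 0.52 (SE 0.17, edgeR adjusted p = 0.0316 with the block and 0.210 without it). DESeq2 with the block gave 0.52 and an adjusted p of 0.0752. Once trends in GC and length had been taken out, the log2 fold change was 0.38 with an adjusted p of 0.125. Leaving out replicate 1 or 2 of 0 h, or replicate 1 or 3 of 6 h, also ended the call, with log2 fold changes of 0.42 to 0.55 and adjusted p-values of 0.0613 to 0.147.

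Irs1 and Irs2 encode the adaptors that couple the insulin and IGF1 receptors to PI3K, and both genes are described as FOXO targets in other tissues. Their mRNAs moved together here, up at 1 h and down again by 6 h. Irs1 (ENSMUSG00000055980; chromosome 1, 82233101 to 82291416, minus strand) had 75.6, 39.7 and 50.3 CPM at 0 h, 114, 66.8 and 54.0 CPM at 1 h and 78.0, 54.5 and 47.6 CPM at 6 h. Irs2 (ENSMUSG00000038894; chromosome 8, 10984681 to 11008458, minus strand) had 142, 115 and 125 CPM at 0 h, 182, 168 and 131 CPM at 1 h and 152, 140 and 121 CPM at 6 h. For each gene the 1 h library was the highest in each replicate, the rise was small in replicate 3 (log2 ratios of 0.10 for Irs1 and 0.07 for Irs2) and larger in replicates 1 and 2 (0.60 and 0.75 for Irs1, 0.36 and 0.54 for Irs2), and the groups overlapped.

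At 1 h against 0 h the log2 fold change was 0.48 for Irs1 (SE 0.0997, edgeR adjusted p = 0.0181 with the block and 1.00 without it), and 4.26% of all tested genes rose further. For Irs2 it was 0.32 (SE 0.071, adjusted p = 0.0237 with the block and 1.00 without it), and 7.38% rose further. Between 1 h and 6 h both fell, Irs1 with a log2 fold change of -0.35 (SE 0.0989, adjusted p = 0.0155 with the block and 0.630 without it) and Irs2 with -0.22 (SE 0.071, adjusted p = 0.0284 with the block and 0.471 without it). At 6 h against 0 h neither was called, with 0.14 for Irs1 (adjusted p = 0.326) and 0.11 for Irs2 (adjusted p = 0.278), but without replicate 3 of 0 h both were, at 0.29 (adjusted p = 0.0393) and 0.21 (adjusted p = 0.0374). The calls at 1 h rested on replicates 1 and 2. Without either library of replicate 1 or 2 at 0 h or 1 h the log2 fold change of Irs1 was 0.35 to 0.47 (adjusted p = 0.0673 to 0.135) and that of Irs2 was 0.23 to 0.31 (adjusted p = 0.0764 to 0.211). The fall of Irs1 was not called without replicate 1 of 1 h or 6 h or replicate 2 of 1 h (adjusted p = 0.0756 to 0.111), and that of Irs2 was not called without any of these libraries or replicate 2 or 3 of 6 h (adjusted p = 0.0644 to 0.193). A further pair of settings ended a call of Irs2, namely a fit of the 6 libraries of 0 h and 1 h alone (log2 fold change 0.33, adjusted p = 0.0565) and scaling by library totals for the fall after 1 h (-0.18, adjusted p = 0.0548). On the opposite strand Gm9747 covers 30.9% of the exon bases of Irs1 and had 0 counts in the 9 libraries, and 9530052E02Rik covers 2.56% of those of Irs2 and had 5 to 42 counts.

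Windows of 300 bases at the RefSeq start sites (250 before and 50 after, GRCm38.p6) were available for 8 of the 10 genes, 9 windows in all, with 2 for Sesn1. They were searched on both strands for the FOXO core GTAAACA, for AAACAA, the core of the insulin response element to which FOXO proteins also bind, and for the E-box CACGTG. A FOXO core followed by A holds an insulin response core as well, and no such overlap occurred in these windows. AAACAA was in 4 of the 9 windows against 20.7% of all 32851 windows, CACGTG in 2 against 7.15% and GTAAACA in 1 against 3.65%. The windows of Irs1 and Irs2 are shown because the genes moved together, and each holds both an insulin response core in reverse (TTGTTT, in capitals) and an E-box (in lower case). They run 5′ to 3′ in the direction of the gene, at chr1:82291390-82291689 and chr8:11008880-11009179, both on the minus strand.
Irs1: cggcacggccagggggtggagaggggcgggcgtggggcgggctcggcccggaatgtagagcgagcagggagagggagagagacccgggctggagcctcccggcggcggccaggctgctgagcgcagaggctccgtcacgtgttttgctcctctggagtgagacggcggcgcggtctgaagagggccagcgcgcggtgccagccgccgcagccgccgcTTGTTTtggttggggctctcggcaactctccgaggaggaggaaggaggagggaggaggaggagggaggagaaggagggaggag
Irs2: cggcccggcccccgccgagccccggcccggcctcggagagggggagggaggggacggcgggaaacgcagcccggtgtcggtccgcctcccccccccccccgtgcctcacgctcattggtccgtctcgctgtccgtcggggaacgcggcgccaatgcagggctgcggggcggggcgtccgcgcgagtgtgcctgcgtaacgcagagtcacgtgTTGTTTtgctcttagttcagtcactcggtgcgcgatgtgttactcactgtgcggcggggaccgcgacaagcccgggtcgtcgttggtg
Counted from the start site (+1), the insulin response core began at -33 in Irs1 and at -38 in Irs2. The E-box began at -115 in Irs1 and at -44 in Irs2, where it directly adjoined the insulin response core. The RefSeq start site of Irs2, at 11008929, lies upstream of the 5′ boundary of the gene in GENCODE, at 11008458 on the minus strand. No transcript start of that annotation was found in the window, so positions in this window hold for the RefSeq site only. Such matches describe letters in a window and are not measured binding sites.

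The sestrins are stress-responsive proteins that restrain the growth kinase complex mTORC1 when amino acids are scarce, and Sesn1 and Sesn3 have been described as FOXO targets. Sesn1 (ENSMUSG00000038332; chromosome 10, 41809935 to 41908424, plus strand) had the largest rise of the 10 genes. It had 24.3, 24.9 and 26.0 CPM at 0 h, 21.8, 25.9 and 26.6 CPM at 1 h and 41.0, 41.7 and 45.6 CPM at 6 h. All 3 libraries of 6 h were far above the 6 earlier ones, and 0 h and 1 h overlapped. The mean went from 25.1 ± 0.861 (SD, n = 3) to 42.8 ± 2.48 CPM between 0 h and 6 h, a log2 fold change of 0.77 (SE 0.060, edgeR adjusted p = 1.10e-06 with the block and 0.0103 without it). At 1 h against 0 h it was -0.02 (adjusted p = 0.896) and took either sign when libraries were left out. Between 1 h and 6 h it was 0.79 (adjusted p = 1.12e-06 with the block and 0.0108 without it), so that the rise was called after 1 h and not before. Of all tested genes 4.32% rose further at 6 h against 0 h, and the rise was called in each of 18 alternative analyses.

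The 2 start sites of Sesn1 are shown because it was the member with the largest change. The windows are at chr10:41810324-41810623 and chr10:41887189-41887488, both on the plus strand, and capitals mark the FOXO core (TGTTTAC, in reverse) in window 1 and the insulin response core (TTGTTT, in reverse) in window 2. These counts are per gene and do not tell which start site was used.
Sesn1 window 1: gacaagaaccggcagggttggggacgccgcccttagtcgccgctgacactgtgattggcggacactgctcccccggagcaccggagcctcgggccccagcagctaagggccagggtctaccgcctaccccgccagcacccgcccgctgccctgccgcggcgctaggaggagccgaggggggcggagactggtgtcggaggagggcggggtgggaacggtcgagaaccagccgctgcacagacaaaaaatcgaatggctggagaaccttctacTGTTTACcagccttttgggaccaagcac
Sesn1 window 2: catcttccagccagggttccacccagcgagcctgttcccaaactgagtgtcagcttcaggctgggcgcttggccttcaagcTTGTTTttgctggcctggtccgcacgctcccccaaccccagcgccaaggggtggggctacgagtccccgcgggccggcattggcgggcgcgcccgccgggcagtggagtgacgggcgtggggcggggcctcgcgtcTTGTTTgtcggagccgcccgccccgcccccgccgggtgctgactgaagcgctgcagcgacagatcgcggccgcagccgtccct
The FOXO core of window 1 began at base 23 after the start site. The insulin response cores of window 2 began at -169 and -33. Both RefSeq start sites, at 41810574 and 41887439, lie inside the gene as placed by GENCODE, which begins at 41809935. For both windows a GENCODE transcript either began in the window or held the bases at the RefSeq site, unlike for Irs2. Positions were counted from the RefSeq sites and do not hold for other start sites of the gene.

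Sesn3 (ENSMUSG00000032009; chromosome 9, 14275067 to 14333101, plus strand) was among the most abundant of the 10 genes and differed strongly between replicates. It had 345, 402 and 250 CPM at 0 h, 403, 461 and 231 CPM at 1 h and 379, 486 and 345 CPM at 6 h. Replicate 2 was highest at each time and replicate 3 lowest, the groups overlapped, and the 6 h library was above the 0 h library in 3 of 3 replicates, by 0.14, 0.27 and 0.46 on the log2 scale. The log2 fold change at 6 h against 0 h was 0.30 (SE 0.090, edgeR adjusted p = 0.0211 with the block and 0.678 without it). Without any single library of 0 h it was 0.29 to 0.31 (adjusted p = 0.0507 to 0.0969), and without replicate 3 of 6 h it was 0.15 (adjusted p = 0.152). The values against 1 h were not called, with 0.11 at 1 h against 0 h (adjusted p = 0.557) and 0.19 at 6 h against 1 h (adjusted p = 0.127). The former was called without replicate 3 of 1 h, at 0.26 (adjusted p = 0.0417), and the latter without replicate 1 of 1 h or of 6 h, at 0.28 and 0.29 (adjusted p = 0.0357 and 0.0384), and with no filter on low counts, at 0.20 (adjusted p = 0.00140).

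Pik3ip1 (ENSMUSG00000034614; chromosome 11, 3330401 to 3342971, plus strand) encodes a membrane protein that binds PI3K and holds it inactive. It had 18.6, 25.7 and 18.8 CPM at 0 h, 16.0, 24.4 and 16.9 CPM at 1 h and 20.4, 31.1 and 22.7 CPM at 6 h. As for Foxo1, each replicate was lowest at 1 h and highest at 6 h, and the groups overlapped because replicate 2 was high throughout. The log2 fold change was 0.23 at 6 h against 0 h (SE 0.059, edgeR adjusted p = 0.00908 with the block and 0.673 without it) and 0.38 at 6 h against 1 h (SE 0.059, adjusted p = 0.000359 with the block and 0.447 without it). The lower value at 1 h against 0 h was not called (-0.15, SE 0.060, adjusted p = 0.212, lower in 3 of 3 replicates). Without replicate 2 or 3 of 0 h the value at 6 h against 0 h was 0.20 or 0.22 and no longer called (adjusted p = 0.0767 and 0.0518). Gm12592, on the opposite strand, covers 2.13% of the exon bases and had 75 to 220 counts per library, and which strand the counting used is not given in the sources used here.

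Ccng2 (ENSMUSG00000029385; chromosome 5, 93267257 to 93276231, plus strand) encodes cyclin G2, an unusual cyclin that is linked to exit from the cell cycle and is a long-known FOXO target. It had 32.3, 37.5 and 31.2 CPM at 0 h, 32.9, 39.4 and 32.7 CPM at 1 h and 39.5, 45.4 and 38.4 CPM at 6 h. The 6 h libraries were above all those of 0 h, while those of 0 h and 1 h overlapped. Within a replicate the rise at 6 h against 0 h was nearly the same, at 0.29, 0.28 and 0.30 on the log2 scale. The log2 fold change was 0.29 (SE 0.050, edgeR adjusted p = 0.000685 with the block and 0.233 without it), and it was 0.23 at 6 h against 1 h (adjusted p = 0.00307 with the block and 0.346 without it) and 0.06 at 1 h against 0 h (adjusted p = 0.601). The call at 6 h against 0 h held without each of the 9 libraries in turn. The window of Ccng2 at chr5:93267323-93267622, plus strand, is shown because it holds the insulin response core (AAACAA, in capitals) as a direct tandem.
Ccng2: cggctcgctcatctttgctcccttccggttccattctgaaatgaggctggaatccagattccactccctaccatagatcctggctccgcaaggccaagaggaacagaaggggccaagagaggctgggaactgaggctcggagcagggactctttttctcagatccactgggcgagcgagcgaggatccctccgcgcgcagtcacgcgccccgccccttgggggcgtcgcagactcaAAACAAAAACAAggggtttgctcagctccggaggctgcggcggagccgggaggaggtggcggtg
The 2 cores began at -14 and -8, so that they followed each other without a gap. The RefSeq start site used, at 93267573, lies inside the gene as placed by GENCODE, which begins at 93267257. Here too a GENCODE transcript either began in the window or held the bases at the RefSeq site. Positions were counted from that site and do not hold for other start sites of the gene.

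**Figure D3:**
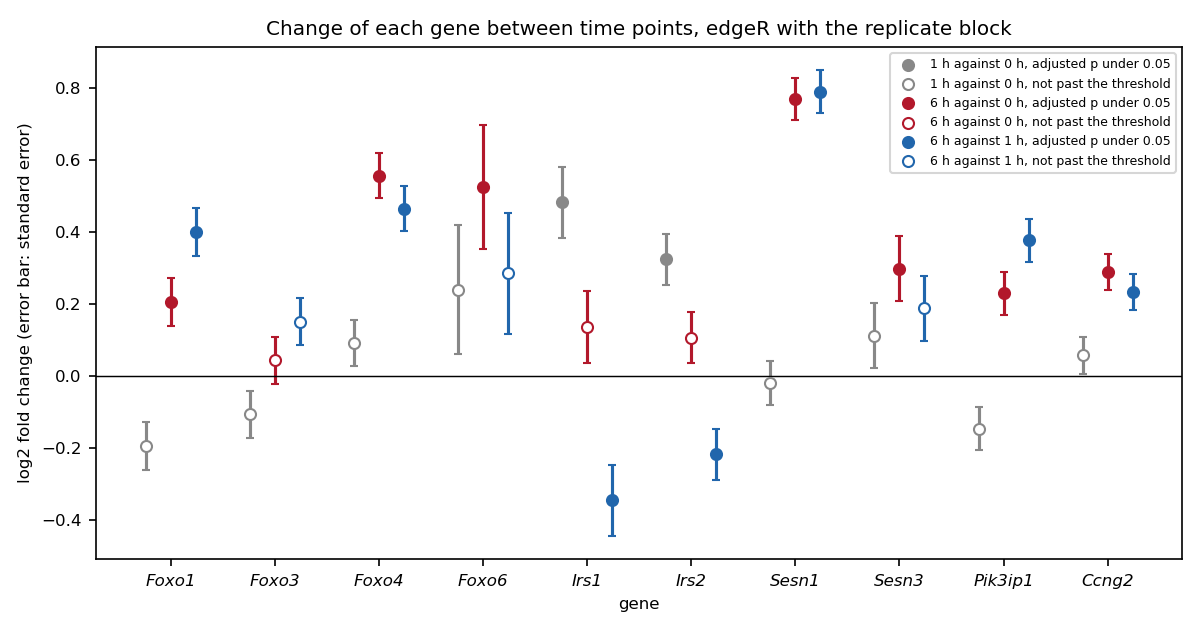
Log2 fold change of each gene between time points from edgeR with the replicate block, grey for 1 h against 0 h, red for 6 h against 0 h and blue for 6 h against 1 h. Error bars are standard errors and filled points have an adjusted p under 0.05. Sesn1 has the largest rises (0.77 and 0.79), Irs1 and Irs2 are filled above 0 at 1 h and below 0 for 6 h against 1 h, and Foxo3 has no filled point.

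The courses of the 10 genes were compared by Pearson's r of log2 CPM after subtraction of the mean of each replicate letter, over the 9 libraries. The 3 libraries of a letter share its mean and the 3 of a time point share its condition, so these values are descriptions. Irs1 and Irs2 had an r of 0.98 with each other, and each was the gene most like the other among all tested genes with a mean of at least 1 CPM. Both were slightly negative with Foxo1 (-0.45). Foxo4, Sesn1 and Ccng2 had r between 0.95 and 0.98 with each other. Foxo1 and Pik3ip1, both lower at 1 h in 3 of 3 replicates though not called there, had 0.97. Foxo3, also lower at 1 h in 3 of 3 replicates and not called, had 0.81 with Foxo1 but 0.25 with Foxo4.

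**Figure D4:**
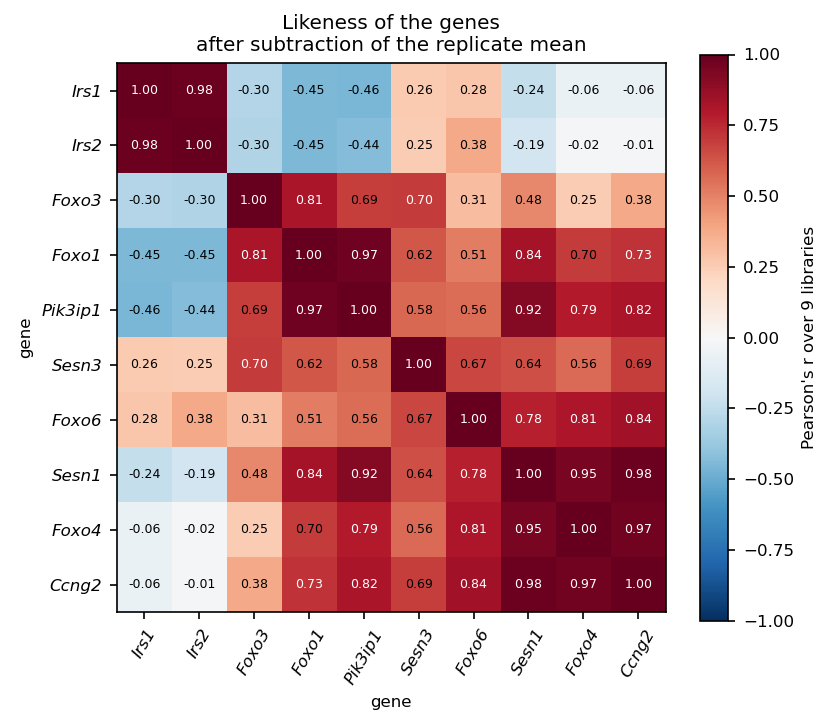
Pearson's r between the 10 genes over 9 libraries after subtraction of the mean of each replicate letter, on a colour scale from blue for negative to red for positive, with the values printed in the cells. Irs1 and Irs2 stand apart as a pair (0.98) from the block of Sesn1, Foxo4 and Ccng2 (0.95 to 0.98).

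For the genes called at 6 h against 0 h, the 2 genes most like each, among the same tested genes, were as follows. Foxo4 was most like Pcyox1l (r = 0.999) and Mmp14 (r = 0.998), a matrix metalloproteinase of the cell surface. Sesn1 was most like Speg (r = 0.998) and Rarg (r = 0.996), a retinoic acid receptor, and Ccng2 most like Hacl1 and Tvp23b (r = 0.998 each). Foxo1 was most like Zkscan3 and Sult6b1 (r = 0.994 and 0.993), and Pik3ip1 most like Fam222a (r = 0.995) and the corepressor gene Rcor2 (r = 0.992). Sesn3 was most like Nsmaf (r = 0.991) and the protocadherin gene Pcdh9 (r = 0.985), and Foxo6 most like Rhbdl2 and the protocadherin gene Pcdhga11 (r = 0.978 and 0.976). With 9 libraries and this many genes such values are met often, and nothing on shared control is read from them.

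Upstream of the FOXO factors, 30 genes of the chain from the insulin and IGF1 receptors to AKT and its partners were examined as a list. None of the 30 was called at 1 h against 0 h (0 higher and 4 lower at an unadjusted p under 0.05, and 0 called by DESeq2 with the block, with 0 higher and 3 lower unadjusted). At 6 h against 0 h 3 were higher and 7 lower, with a median log2 fold change of -0.03, beside 0.00 for all tested genes, and 20 were not called. Shares of 3 and 7 in 30 stood beside the 17.4% and 17.5% of all genes given above. Between 1 h and 6 h 6 were higher and 8 lower, beside 18.0% and 17.5% of all genes, with a median of 0.01. Without the block the list had 2 calls at 6 h against 0 h, Sgk1 among them.

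The genes of the chain that fell include enzymes with opposite roles. Sgk1, a kinase of the AKT family that also phosphorylates FOXO proteins, dropped from a mean of 45.9 ± 1.57 CPM (SD, n = 3) to 19.9 ± 6.55 CPM after 6 h, a log2 fold change of -1.22 (SE 0.15, edgeR adjusted p = 6.27e-05 with the block and 0.0361 without it). Inpp4b, a lipid phosphatase gene whose product opposes PI3K signals, fell as well, from 7.11 ± 2.56 to 3.19 ± 1.22 CPM (-1.16, adjusted p = 9.70e-06 with the block and 0.255 without it). Xpo1, the export receptor that carries FOXO proteins out of the nucleus, fell by 0.39 on the log2 scale (adjusted p = 0.000403 with the block and 0.224 without it), and Pdpk1, which phosphorylates AKT, fell by 0.26 (adjusted p = 0.00503 with the block and 0.116 without it). Igf1r (-0.21) and Pik3cb (-0.16) were also called lower.

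On the other side, 3 genes of the chain rose. Pik3r1, the main regulatory subunit of PI3K, went from 252 ± 51.3 to 365 ± 66.3 CPM (log2 fold change 0.54, SE 0.056, edgeR adjusted p = 1.33e-05 with the block and 0.255 without it). Tsc1, a subunit of the complex that restrains mTORC1, went from 70.3 ± 7.15 to 85.7 ± 4.69 CPM (0.29, adjusted p = 0.000676 with the block and 0.199 without it). Grb10, an adaptor that dampens the insulin receptor, rose by 0.69 (adjusted p = 0.000698 with the block and 0.866 without it) in 3 of 3 replicates, from a low and very uneven level of 2.26 ± 2.67 CPM. Akt1, Akt2, Insr and Mtor were not called at 6 h against 0 h, with log2 fold changes between -0.10 and -0.0038. At 6 h against 1 h Akt1 was called lower (-0.16, edgeR adjusted p = 0.0151 with the block and 0.428 without it). Akt2 was called lower there as well (-0.20, adjusted p = 0.00571 with the block and 0.128 without it), and Insr and Mtor were not called.

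Of 30 other genes described as FOXO targets, 29 could be tested, since Trim63 was below the filter. They included 5 higher and 2 lower at 1 h against 0 h, beside 1.36% and 2.14% of all tested genes, with a median log2 fold change of 0.11 beside 0.00. At 6 h against 0 h 8 were higher and 6 lower, beside 17.4% and 17.5% of all tested genes, with a median of 0.07. Between 1 h and 6 h 6 were higher and 9 lower, beside 18.0% and 17.5%, with a median of -0.05. Without the block no gene of the list was called at 1 h against 0 h (2 higher and 0 lower at an unadjusted p under 0.05, with 2 called by DESeq2 without the block) or at 6 h against 0 h (5 higher and 3 lower unadjusted, with 4 called by DESeq2 without the block).

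The targets that rose at 6 h included Bcl6, a transcriptional repressor, from 9.30 ± 2.48 to 20.3 ± 3.42 CPM (log2 fold change 1.14, SE 0.092, edgeR adjusted p = 1.58e-06 with the block and 0.0565 without it). Ddit4, another inhibitor of mTORC1, went from 95.4 ± 10.4 to 158 ± 21.7 CPM (0.72, adjusted p = 1.30e-06 with the block and 0.0605 without it). Pdk4, a kinase that shuts off pyruvate dehydrogenase, rose by 0.75 from 0.899 CPM, the MYC antagonist Mxi1 by 0.43 and the pocket protein gene Rbl2 by 0.28. The largest falls were those of Fbxo32, a ubiquitin ligase of muscle wasting (-0.62), the pro-apoptotic genes Bcl2l11 (-0.59) and Pmaip1 (-0.58), the cyclin gene Ccnd2 (-0.46) and Klf6 (-0.36). Ccnd2 and Ccnd1, which also fell (-0.27), are described as repressed by FOXO proteins, unlike most of the list.

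At 1 h the targets that rose were Cited2, a regulator of coactivator binding (log2 fold change 0.91, SE 0.093, edgeR adjusted p = 0.000114), Klf6 (0.57), Fbxo32 (0.52), the cell cycle inhibitor gene Cdkn1a (0.30) and Ddit4 (0.24). Txnip, which binds thioredoxin, fell (-0.84, adjusted p = 0.0167), as did Pmaip1 (-0.51). The mean of Cited2 was 8.29 ± 1.56 CPM (SD, n = 3) in undifferentiated cells, 15.5 ± 1.48 CPM after 1 h and 7.31 ± 0.431 CPM after 6 h. Like Irs1 and Irs2, Cited2, Cdkn1a, Klf6 and Fbxo32 were called higher at 1 h against 0 h and lower at 6 h against 1 h. Cited2 and Cdkn1a were not called at 6 h against 0 h, whereas Klf6 and Fbxo32 were called lower.

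**Figure D5:**
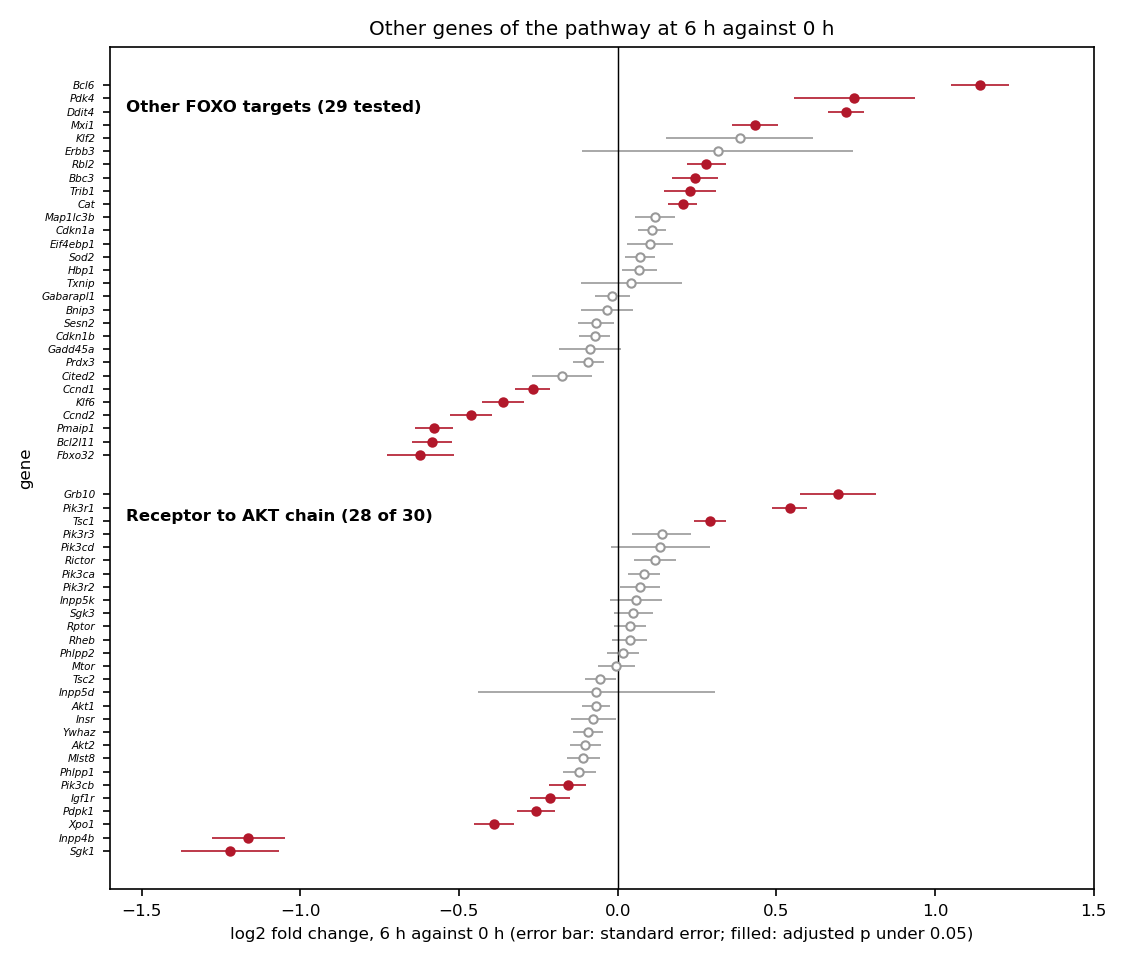
Log2 fold change at 6 h against 0 h of 29 other FOXO targets (top) and of 28 of the 30 genes of the chain from the receptors to AKT (bottom), from edgeR with the replicate block. Bars are standard errors and filled red points have an adjusted p under 0.05. Each list spreads to both sides of 0, from Bcl6 at 1.14 to Fbxo32 at -0.62 among the targets and from Grb10 at 0.69 to Sgk1 at -1.22 in the chain.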

How the data were processed

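RNA was measured in 9 libraries of cultured adult NSCs, 3 for each of the 3 time points. The authors deposited raw counts of reads per Ensembl gene, without normalisation. Per the labels and the study's methods, mRNA libraries were stranded, reads were aligned to mm10 (GRCm38) with STAR 2.5.3a, quality was checked with FastQC and differential expression was tested with DESeq2 1.22.1; the strand setting of the counting is not given in the sources used here.

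The tests on the counts were run with edgeR 4.0.16 (filterByExpr with a minimum count of 10 and a minimum total of 15, TMM scaling, glmQLFit and glmQLFTest) and DESeq2 1.42.0, in R 4.3.3. The package limma 3.58.1 was loaded beside them and gave none of the calls. Time point and replicate letter were terms of 1 fit over the 9 libraries. The replicate numbers come from the labels and the titles carry them as letters. The pairing by letter was given by the rule that named the 10 genes, and the letter stands in each title. With the time point means removed, log2 CPM correlated at 0.733 to 0.800 in 9 pairs of libraries with the same letter. These correlations come from the same counts as the calls and are a description, not separate support for the block. In 18 pairs with other letters the correlation was -0.462 to -0.314. Removal of a mean over 3 libraries makes these values negative when the same-letter values are high, so they are not separate evidence. The common biological coefficient of variation was 0.0627 with the block and 0.277 without it. P-values were adjusted by the Benjamini-Hochberg method over 18858 genes, with a threshold of 0.05. Standard errors were derived from the F statistic. Log2 CPM used a prior count of 2. Symbols (for 48144 of 48526 genes), positions and exon lengths came from GENCODE M21. Promoter windows came from RefSeq, GRCm38.p6. The fit was also run on counts simulated from a model with the same replicate block. Such counts cannot tell whether the block is right, and no conclusion is drawn from them.

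The members and gene lists were chosen with earlier results of these data known. All members are named. Of each list the text names the genes called at 6 h or 1 h against 0 h with the largest changes, up to 5 in each direction, and for members called at 6 h the 2 most similar genes. Igf1r, Pik3cb and Ccnd1, and Akt1, Akt2, Insr and Mtor, were named after their values had been seen. Alternatives were no replicate block, DESeq2 with and without the block, RLE scaling, library totals, no filter, a mean of at least 1 CPM, only the 6 libraries compared, removal of GC and length trends (99.6% of tested genes, splines with 4 degrees of freedom), an adjusted p under 0.01, leaving out each library, and the longest transcript as length. Some listed genes count in the totals and are not reported by name here. Splicing was not analysed here.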

Additional observations from a re-analysis of the deposited data

How the results depend on the processing

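Of the 30 log2 fold changes of the 10 genes, all 30 kept direction and side of the threshold with RLE scaling and with a mean of at least 1 CPM, 29 with DESeq2 and the block, 29 with only the 6 libraries compared, 28 with library totals, 28 with no filter and 28 with GC and length trends removed. The replicate block mattered most. Without the replicate block 18 kept both and 12 lost their call, in edgeR and in DESeq2. Members called higher then numbered 0, 2 and 2 at 1 h against 0 h, 6 h against 0 h and 6 h against 1 h in either tool (2, 7 and 5 with the block), and members called lower at 6 h against 1 h numbered 0 (2 with the block). In edgeR without the block the calls among all genes were 8, 456 and 404 (661, 6581 and 6710 with it), in the chain 2 and 0 at 6 h against 0 h and 1 h (10 and 14 with it), and among the other targets 0, 0 and 2 (7, 14 and 15 with it). In DESeq2 without the block they were 72, 1498 and 1425 for all genes, 2 and 3 for the chain at 6 h, and 2, 4 and 4 for the targets. Removal of GC and length trends gave 16 calls in the chain at 6 h against 0 h and turned Foxo3 at 6 h against 0 h to -0.0045. With no filter, 1 h against 0 h gave 1369 calls among all genes, 1 in the chain and 11 among the targets. Library totals gave 1 call in the chain at 1 h and 1 member lower at 6 h against 1 h. With only the 6 libraries 1 member was higher at 1 h, and at an adjusted p under 0.01 4 were higher at 6 h against 0 h.

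Leaving out 1 library at a time kept 231 values, ended 31 calls, added 5 and turned 3 signs, in Foxo3 at 6 h against 0 h (-0.043 to 0.092) and Sesn1 at 1 h against 0 h (-0.070 to 0.046). Members higher ranged from 0 to 3 at 1 h against 0 h, from 3 to 7 at 6 h against 0 h and from 5 to 6 at 6 h against 1 h, and members lower at 6 h against 1 h from 0 to 2. At 6 h against 0 h 4 members were higher without replicate 1 of 0 h or replicate 3 of 6 h and 3 without replicate 2 of 0 h. None was higher at 1 h against 0 h without replicate 1 or 2 of 0 h or 1 h. No member was lower at 6 h against 1 h without replicate 1 of 1 h or 6 h or replicate 2 of 1 h. The chain had 0 to 1 calls at 1 h against 0 h, 7 to 14 at 6 h against 0 h and 11 to 14 at 6 h against 1 h, the targets 4 to 8, 11 to 16 and 14 to 17, and all genes 213 to 886, 4350 to 8051 and 5148 to 6657. The cause of these shifts was not tested. Foxo6 had 67 to 133 reads per library, and whether depth bears on its call was not tested.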
